A study of Mus musculus with 20 samples.

Results

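The 10 transcription factor and cofactor genes that work beside the GATA factors in erythroid cells were followed through LSK and MEP cells of 4 genotypes. The genes are Klf1, Gfi1b, Zfpm1, Tal1, Lyl1, Lmo2, Ldb1, Cbfa2t3, Nfe2 and Sox6, taken by name as 10 rows of the 24315 in each deposited table, and Gata1 and Gata2 were read beside them as reference rows. All 10 were above the filter on low values in both cell types. LSK cells (Lin-Sca1+Kit+) hold the stem and multipotent progenitors of the bone marrow (BM), and MEP cells (Lin-Sca1-Kit+CD34-FcgRII/III lo/-) the megakaryocyte-erythroid progenitors. Both were sorted by FACS from the same C57BL/6 mice, and polyA RNA was sequenced. Of the 10 libraries of a cell type, 3 came from wild type (WT) mice, 3 from Dnmt3a-/-, 2 from Bcor-/- and 2 from mice without either gene (Bcor-/-Dnmt3a-/-). Per the study's methods, Bcor lost exons 8 to 10 and both genes were deleted with Mx1-Cre, which interferon switches on after pIpC and which is not limited to erythroid cells. The library descriptions tag every mutant library Cre, while the WT libraries are named 3A_XY_WT without that tag. What the tags mean is not stated, and the Cre tag and the genotype change together in each contrast with WT. One Bcor-/- library of each cell type names a pair of mice. The labels give neither the age of the mice nor a disease stage. The study, which uses the Bcor-/-Dnmt3a-/- mice as a model of acute erythroid leukemia, calls those it set against WT leukemic.

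In erythroid progenitors GATA1 rarely works alone. TAL1, a basic helix-loop-helix protein, binds E-box DNA with an E protein, LMO2 bridges it to GATA1, and LDB1 dimerizes and so ties distant complexes together; LYL1 is the close relative that can take the place of TAL1, and CBFA2T3 (ETO2) is a corepressor of this complex. ZFPM1 (FOG1) binds GATA1 directly, GFI1B is a repressor that works through LSD1, and KLF1 is the zinc finger activator of CACCC boxes in globin and most other erythroid genes. NFE2 dimerizes with small MAF proteins at globin control regions and in platelet genes, and SOX6 represses embryonic globin. GATA2 is the stem cell and early progenitor form that GATA1 replaces as erythroid cells mature.

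Promoter sequence was read for 8 of the 10 genes from RefSeq (GRCm38.p6), Lmo2 and Nfe2 having no entry. Windows ran from 250 bases before to 50 bases after the annotated start. The 3 members that were called higher in Bcor-/-Dnmt3a-/- LSK cells are shown 5′ to 3′ with only the 250 bases before the start. Capitals mark a GATA motif (the letters GATA after A or T and before A or G, on either strand) or a CACCC-type motif (CCNCNCCC on either strand, which overlaps the GC box of SP proteins).

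Klf1, chr8:84901732-84901981, plus strand: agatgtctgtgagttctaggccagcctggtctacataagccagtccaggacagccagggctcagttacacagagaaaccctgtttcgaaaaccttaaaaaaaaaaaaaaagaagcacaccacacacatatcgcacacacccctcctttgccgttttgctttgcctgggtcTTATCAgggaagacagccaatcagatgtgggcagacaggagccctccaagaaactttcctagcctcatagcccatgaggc

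Gfi1b, chr2:28621983-28622232, minus strand: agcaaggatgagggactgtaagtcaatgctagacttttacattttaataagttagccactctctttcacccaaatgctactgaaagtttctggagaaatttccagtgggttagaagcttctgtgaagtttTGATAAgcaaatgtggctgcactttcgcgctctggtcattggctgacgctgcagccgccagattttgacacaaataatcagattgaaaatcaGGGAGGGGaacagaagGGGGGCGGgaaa

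Zfpm1, chr8:122281891-122282140, plus strand: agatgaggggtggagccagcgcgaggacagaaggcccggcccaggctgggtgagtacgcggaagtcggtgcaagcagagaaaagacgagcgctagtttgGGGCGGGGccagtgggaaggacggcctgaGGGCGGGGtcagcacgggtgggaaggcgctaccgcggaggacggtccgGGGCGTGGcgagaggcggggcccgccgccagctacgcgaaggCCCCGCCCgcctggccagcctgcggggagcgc

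Klf1 had 1 GATA match, whose first base lay 80 bases before the start. Gfi1b had 1 GATA match at 120 bases and CACCC-type matches at 28 and 12 bases. Zfpm1 held none of the GATA letters in this window and CACCC-type matches at 151, 122, 74 and 32 bases. Over all the members' windows, 7 of 17 held a GATA match and 11 of 17 a CACCC-type match, while 29.8% and 49.5% of the 32851 windows of all genes did. A match is a description of the letters and not a binding site.

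Depth per library is not known, since only FPKM (fragments scaled to transcript length and to the mapped total) were deposited. Single-fragment steps at low values put the relative depth at 0.785 to 1.31 in LSK and 1 to 1.61 in MEP, with WT replicate 1 as the unit. Bcor and Dnmt3a checked the labels only in part. FPKM cover the whole gene. The study reports that PCR detected no Bcor mRNA in Bcor-/- LSK cells. It also reports that Dnmt3a was only partly deleted in Dnmt3a-/- mice and fully lost in leukemic Bcor-/-Dnmt3a-/- mice alone. The part of whole-gene counting or partial deletion in the levels below was not tested. Bcor was 22.4 and 23.2 FPKM in Bcor-/- LSK cells but 24.0 and 37.4 in Bcor-/-Dnmt3a-/- LSK cells, against 29.5 to 32.4 in WT. In MEP cells it was 19.5 and 22.4 FPKM in Bcor-/- and 19.6 and 26.7 in Bcor-/-Dnmt3a-/-, against 21.3 to 26.9 in WT, so that 1 library of each lay inside the WT range. Dnmt3a was 16.9, 14.0 and 11.3 FPKM in Dnmt3a-/- LSK cells and 10.4 and 10.9 in Bcor-/-Dnmt3a-/- ones, against 16.1 to 19.8 in WT and 13.9 and 14.1 in Bcor-/-. In MEP cells it was 5.40, 2.97 and 2.56 FPKM in Dnmt3a-/- and 6.85 and 3.44 in Bcor-/-Dnmt3a-/- cells, against 5.49 to 6.64 in WT. The 2 Bcor-/-Dnmt3a-/- libraries of a cell type stood apart from each other (r = 0.849 in LSK and 0.815 in MEP across genes, against at least 0.973 and 0.971 between replicates within each of the other genotypes), so each value of theirs is given for the members.

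In WT LSK cells Lmo2 was the most abundant member, at 523 ± 33.7 FPKM (SD, n = 3), followed by Nfe2 at 165 ± 22.3, Ldb1 at 109 ± 8.26 and Lyl1 at 94.5 ± 12.8, with no overlap between neighbours. Tal1 (39.5 ± 5.91), Zfpm1 (29.4 ± 6.21), Cbfa2t3 (24.1 ± 5.47) and Gfi1b (19.3 ± 5.13) came next, each overlapping the next in its range. Sox6 (4.70 ± 1.03) and Klf1 (4.32 ± 2.12) were lowest and overlapped each other, below Gata1 at 10.9 ± 2.72 FPKM.

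The WT MEP cells had a different order. Lmo2 again led, at 287 ± 17.1 FPKM, and Ldb1 (178 ± 19.4), Klf1 (163 ± 25.2) and Gfi1b (156 ± 29.8) followed with overlapping ranges. Nfe2 (84.1 ± 12.8), Tal1 (83.6 ± 6.90) and Zfpm1 (78.3 ± 4.93) overlapped, and Lyl1 (33.4 ± 4.12), Cbfa2t3 (12.3 ± 3.15) and Sox6 (4.37 ± 0.676) were lowest. The means were set side by side with no test, since how the LSK and MEP values were scaled to each other is not stated. The ratio of MEP to LSK means was 37.7 for Klf1, 8.10 for Gfi1b, 2.66 for Zfpm1 and 2.11 for Tal1. The ratio of LSK to MEP means was 2.83 for Lyl1, 1.96 for Nfe2 and Cbfa2t3 and 1.82 for Lmo2.

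**Figure D1:**
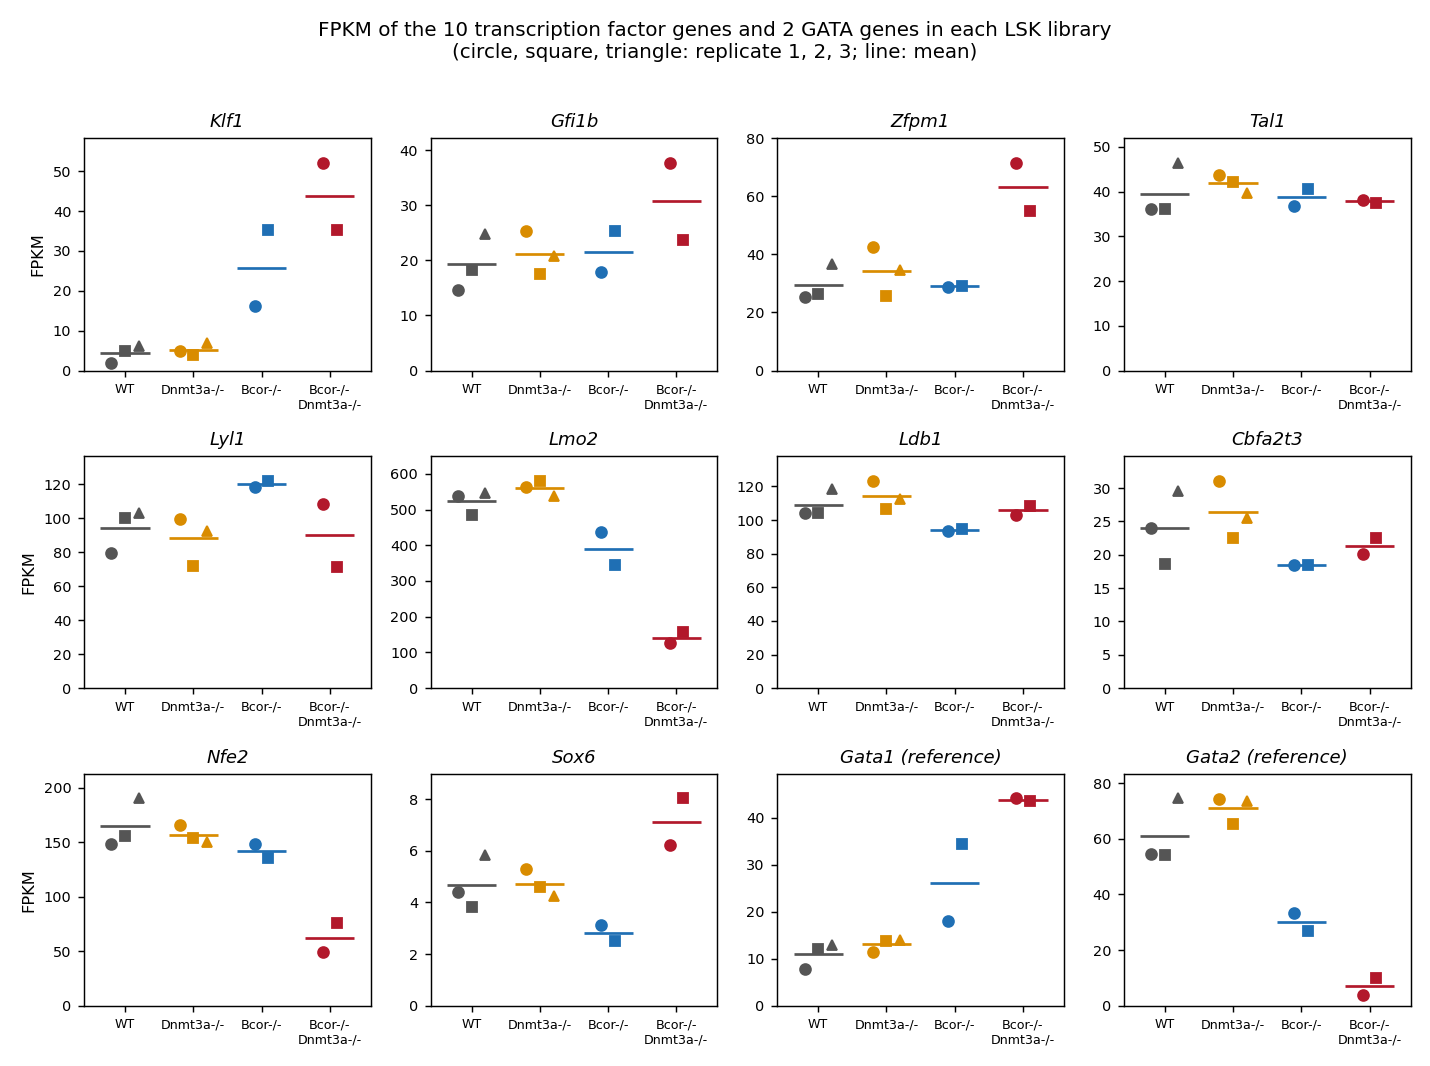
FPKM (linear axis from 0, scaled per gene) of each LSK library for the 10 genes and for Gata1 and Gata2, with 1 point per library and a line at the genotype mean. Klf1 is 35.3 and 52.0 FPKM in the Bcor-/-Dnmt3a-/- libraries against at most 6.05 in WT, while Lmo2 falls from at least 485 to 126 and 156 FPKM.

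The first comparison asked which partners of the GATA factors changed in LSK cells that had lost both genes. In Bcor-/-Dnmt3a-/- LSK cells 3 members were called higher than in WT (Klf1, Zfpm1 and Gfi1b) and 2 lower (Lmo2 and Nfe2), while Tal1, Ldb1, Lyl1, Cbfa2t3 and Sox6 were not called. A call is an unadjusted p under 0.05 in limma's moderated test with a fold change over 1.5 on the log2(FPKM + 1) scale, which understates the change of low genes, and adjusted p-values are Benjamini-Hochberg values over all tested genes. These 5 of 10 stand beside 28.3% of the 11952 genes tested. By direction, 15% of all genes were called higher and 13.3% lower. Of all called genes 53% were higher, but 45% after quantile normalization and 44.2% after centring each library on its median, which moved the all-gene median from 0.019 to -0.08 and -0.073 on the log2 scale.

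Klf1, the activator of globin genes, had 1.96, 4.96 and 6.05 FPKM in the WT libraries, while those of Bcor-/-Dnmt3a-/- LSK cells had 52.0 and 35.3. Both mutant libraries lay far above every WT library, a log2 fold change of 3.14 ± 0.42 (SE; limma adjusted p = 0.00078). Zfpm1, the GATA1 cofactor, was 25.4, 26.3 and 36.6 FPKM in WT and 71.5 and 54.8 in the mutant, without overlap (1.08 ± 0.23, adjusted p = 0.007). Gfi1b was 14.7, 18.3 and 24.8 FPKM in WT and 37.7 and 23.8 in the mutant. Here mutant replicate 2 lay inside the WT range, the log2 fold change was 0.64 ± 0.27 and the adjusted p 0.11, and 10 of 19 alternatives in the processing did not call it.

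Lmo2, the bridge of the TAL1 complex, had 538, 485 and 548 FPKM in the WT libraries, and Bcor-/-Dnmt3a-/- LSK cells had 126 and 156. The ranges were far apart, with a log2 fold change of -1.89 ± 0.15 (adjusted p = 6.2e-05). Nfe2 was 148, 155 and 190.1 FPKM in WT and 49.0 and 76.1 in the mutant, again without overlap (-1.41 ± 0.18, adjusted p = 0.00064). Both calls, and those of Klf1 and Zfpm1, stood under each of the 19 alternatives of the processing. These 4 are also the members called with the adjusted p (23.7% of all genes) and with 1 variance per genotype (21% of all genes).

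The remaining 5 members were not called. Tal1 had 36.2, 36.1 and 46.4 FPKM in the WT libraries and 38.2 and 37.5 with both genes lost, and its log2 fold change of -0.05 had a 95% interval from -0.34 to 0.24. Ldb1 was 104, 104 and 119 FPKM in WT and 103 and 109 in the mutant, with an interval from -0.28 to 0.20. For the TAL1 relative Lyl1 the WT libraries had 79.8, 100.5 and 103 FPKM, and the mutant libraries lay on either side of them at 108 and 71.6 (interval -0.55 to 0.37). The corepressor gene Cbfa2t3 was 24.0, 18.6 and 29.5 FPKM in WT and 20.1 and 22.5 in the mutant, within the WT range (interval -0.59 to 0.29). Sox6 was 4.42, 3.83 and 5.84 FPKM in WT and 6.22 and 8.03 in the mutant, above all WT libraries but short of the fold threshold (0.52 ± 0.20, interval 0.06 to 0.98, adjusted p = 0.085). Of 18 alternatives in the processing 3 called it, among them a pseudocount of 0.1.

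The order of the levels in Bcor-/-Dnmt3a-/- LSK cells differed from that in WT. Lmo2, at a mean of 141 FPKM, was close to Ldb1 at 106 and Lyl1 at 89.9, and Klf1, lowest of the 12 genes in WT, had moved to rank 7 with 43.7 FPKM, beside Gata1 at 43.8. Gata2 went from the fifth place to the last, at a mean of 6.94 FPKM from libraries at 3.74 and 10.1, while the Gata1 libraries had 44.1 and 43.5. Libraries of the 2 genotypes did not overlap for 3 members that were above WT (Klf1, Zfpm1, Sox6) and 2 below (Lmo2, Nfe2), 5 of 10 where 49.6% of all tested genes did not overlap. Permuting 2 and 3 libraries exactly gives no p under 0.1, so no such test was used.

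The markers of other cells moved in the same libraries. The summed FPKM of 11 erythroblast markers was 139 to 252 in WT LSK cells and 6064 and 21059 in the Bcor-/-Dnmt3a-/- replicates 1 and 2, with all 11 markers higher. Of the members, Klf1, Zfpm1, Gfi1b, Tal1 and Lyl1 were higher in replicate 1 and Lmo2, Nfe2, Ldb1, Cbfa2t3 and Sox6 in replicate 2. B cell markers summed to 263 to 436 FPKM in WT and to 3500 and 1352 in the mutant, with 6 of 10 higher and 1 lower, and macrophage markers to 36.3 to 277 and to 1477 and 50.3, with 1 of 8 higher. Of the 9 T and NK markers 8 were higher and 1 lower (216 to 243 FPKM in sum in WT, 140.1 and 416 in the mutant), and of the 14 granulocyte-monocyte markers 1 was higher (3839 to 13738 and 8393 and 9061). Stem and LSK markers fell in 8 of 11 cases, from sums of 1256 to 1448 to 405 and 469 FPKM. Cd34 was 5.87 and 37.3 FPKM against at least 548 in WT, and Kit, which defines the gate, 47.7 and 19.4 against at least 148, while Ly6a (Sca1) was 63.5 and 220.2 against 59.8 to 70.7. Megakaryocyte markers fell in 8 of 12 cases (184 to 228 FPKM in WT, 20.5 and 79.99 in the mutant) and mast and basophil markers in 5 of 7, with 1 higher (121 to 266 and 30.8 and 62.3). The part of these markers in the members' levels was not tested, and in bulk RNA fewer cells of a type cannot be told apart from less RNA per cell.

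With loss of Bcor alone Klf1 was the 1 member called in LSK cells, and it was higher. Klf1 was 16.1 and 35.4 FPKM in Bcor-/- LSK cells, above all 3 WT libraries (log2 fold change 2.32 ± 0.42, adjusted p = 0.021), and Bcor-/- replicate 2 had as much as Bcor-/-Dnmt3a-/- replicate 2. Lmo2 was 437 and 344 FPKM, below every WT library, with a log2 fold change of -0.43 ± 0.15 that missed the fold threshold (adjusted p = 0.11). Sox6 was 3.14 and 2.52 FPKM, also below every WT library (-0.56 ± 0.20, adjusted p = 0.12), on the opposite side from Bcor-/-Dnmt3a-/- LSK cells. Nfe2 (148 and 135 FPKM), Ldb1 (93.6 and 94.7) and Cbfa2t3 (18.4 in both) lay just below WT and Lyl1 (118 and 122) above it, none past the test. This 1 of 10 stands beside 13.2% of genes called, or 5.77% with the adjusted p, under which Klf1 was also called with all libraries in the fit. With each library left out in turn the log2 fold change of Klf1 ran from 1.78 to 2.86. The count was 2 with a pseudocount of 0.1 or quantile normalization, and 3 without Bcor-/- replicate 1.

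Some sums of markers in Bcor-/- LSK cells differed from WT. Granulocyte-monocyte markers summed to 19099 and 27302 FPKM, with 8 of 14 higher, erythroblast markers to 590 and 947 FPKM, with 5 of 11 higher, and stem and LSK markers to 947 and 651, with 4 of 11 lower. T and NK markers summed to 457 and 620 FPKM against 216 to 243 in WT, with 1 of 9 higher. B cell markers summed to 206 and 99.8 FPKM against 263 to 436, with 0 of 10 called. Of 7 mast and basophil markers 4 were lower and 1 higher. The part of all these markers in the Klf1 value was not tested.

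The contrast of both knockouts with Bcor-/- shows what differed on top of Bcor loss, though it shares its mutant libraries with the comparison against WT. Zfpm1 (1.08 ± 0.25, adjusted p = 0.012) and Sox6 (1.08 ± 0.22, adjusted p = 0.0072) were higher in Bcor-/-Dnmt3a-/- LSK cells, and Lmo2 (-1.46 ± 0.16, adjusted p = 0.00042) and Nfe2 (-1.20 ± 0.20, adjusted p = 0.0028) were lower. With 1 variance per genotype these adjusted p-values were 0.2, 0.15, 0.011 and 0.031. Klf1 was not called, at 0.81 with an interval from -0.24 to 1.87. The 4 of 10 stand beside 30.6% of all genes.

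Dnmt3a loss alone gave no call among the members in either cell type (limma, 0 of 10 also at an unadjusted p under 0.05 whatever the fold, and 0 under each of the alternatives). Over all genes 0.443% were called in LSK and 0.412% in MEP. At the unadjusted p alone 156 of 11952 genes passed in LSK and 225 of 10933 in MEP. The Dnmt3a level itself overlapped WT in Dnmt3a-/- LSK cells, and in Dnmt3a-/- MEP cells replicate 1 was only just below WT. In LSK cells the members' log2 fold changes ran from -0.10 to 0.30 and in MEP cells from -0.19 to 0.44. Klf1 was 5.01, 3.94 and 6.84 FPKM in Dnmt3a-/- LSK cells, overlapping WT. In Dnmt3a-/- MEP cells Klf1 (194 to 226 FPKM) and Zfpm1 (99.5 to 111) lay above all 3 WT libraries without passing the test.

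**Figure D2:**
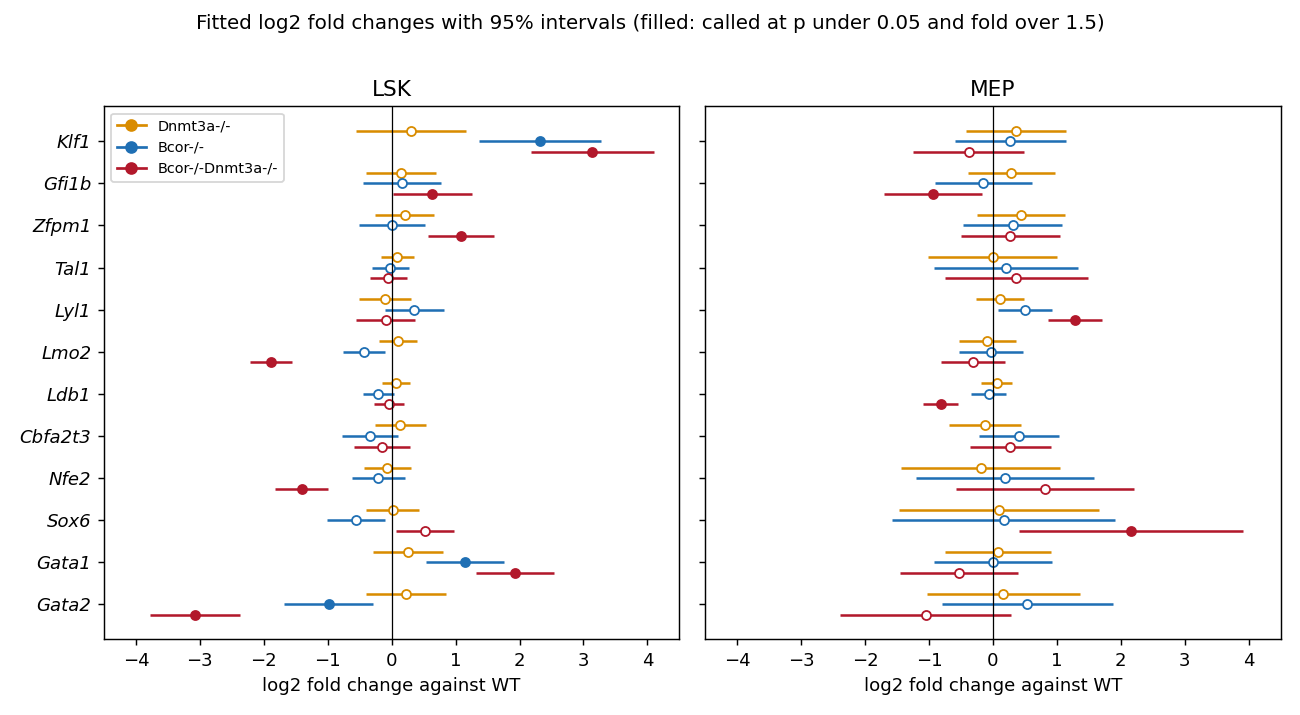
Log2 fold changes against WT on the log2(FPKM + 1) scale with 95% intervals (horizontal axis) for the 10 genes and for Gata1 and Gata2 (vertical axis) in LSK (left) and MEP (right), coloured by genotype. Filled points are called, and in LSK they include Klf1 for both Bcor genotypes and Lmo2, Nfe2, Zfpm1 and Gfi1b for Bcor-/-Dnmt3a-/- alone.

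In MEP cells Lyl1 and Sox6 were called higher and Ldb1 and Gfi1b lower in Bcor-/-Dnmt3a-/- than in WT, with the other 6 members not called. None of the 4 was called in LSK cells in the same direction. These 4 of 10 stand beside 30.9% of the 10933 genes tested (18.5% higher and 12.4% lower). Of all called genes 59.8% were higher, but 39.1% after quantile normalization, which shifted the all-gene median from 0.018 to -0.17 on the log2 scale, and 42.2% after centring, with a median of -0.14. The 4 members kept their directions under both scalings, and Sox6 lost its call after quantile normalization (1.77).

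Lyl1 was 29.1, 37.3 and 33.7 FPKM in WT MEP cells, against 69.9 and 97.5 with both genes lost (log2 fold change 1.29 ± 0.18, adjusted p = 0.0017). Both mutant libraries were above WT. Ldb1 was 185, 192 and 156 FPKM in WT and 95.8 and 104 in the mutant, both below WT (-0.82 ± 0.12, adjusted p = 0.002). The Lyl1 and Ldb1 changes held without either mutant library and were the only 2 called with the adjusted p (25.2% of all genes). The exons of Lyl1 overlap those of Nfix by a few bases on the other strand, and the strandedness of the libraries is not stated, so a small share of its fragments may be shared.

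Sox6 and Gfi1b were called on libraries that differed widely. Sox6 was 3.84, 5.13 and 4.12 FPKM in the WT libraries, against 6.37 and 76.5 in the mutant ones (2.16 ± 0.77, adjusted p = 0.059). Both lay above WT, but replicate 2 carried the change, which was 0.46 without it and 3.86 without replicate 1. Gfi1b was 137, 191 and 141 FPKM in WT and 49.8 and 129 in the mutant (-0.94 ± 0.33, adjusted p = 0.06), both below WT. Without mutant replicate 1 its log2 fold change was -0.26 and it was not called.

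The 2 Bcor-/-Dnmt3a-/- MEP libraries lay on opposite sides of WT for 5 of the 10 members. In replicate 1, 7 members were below every WT library and 2 above, and in replicate 2, 8 were above and 2 below. Nfe2 was 57.1 and 378 FPKM against 75.9 to 98.8 in WT, Tal1 50.5 and 229.8 against 79.4 to 91.5, and Zfpm1 56.8 and 158 against 72.6 to 81.2. Klf1 was 70.9 and 219 FPKM against 144 to 192, and Lmo2 168 and 317 against 272 to 306. The sign of each of these 5, as of Gata1 (71.4 and 239 FPKM against 170.2 to 225), turned with the library left out, and a mean of the pair describes neither. Cbfa2t3, whose first exon overlaps an antisense gene, was 12.7 and 17.0 FPKM against 8.86 to 15.1. Libraries of the 2 genotypes did not overlap for 4 of 10 members, 2 above WT and 2 below, where 50.5% of all tested genes did not overlap. With 1 variance per genotype 4 members were again called, beside 18.1% of all genes.

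**Figure D3:**
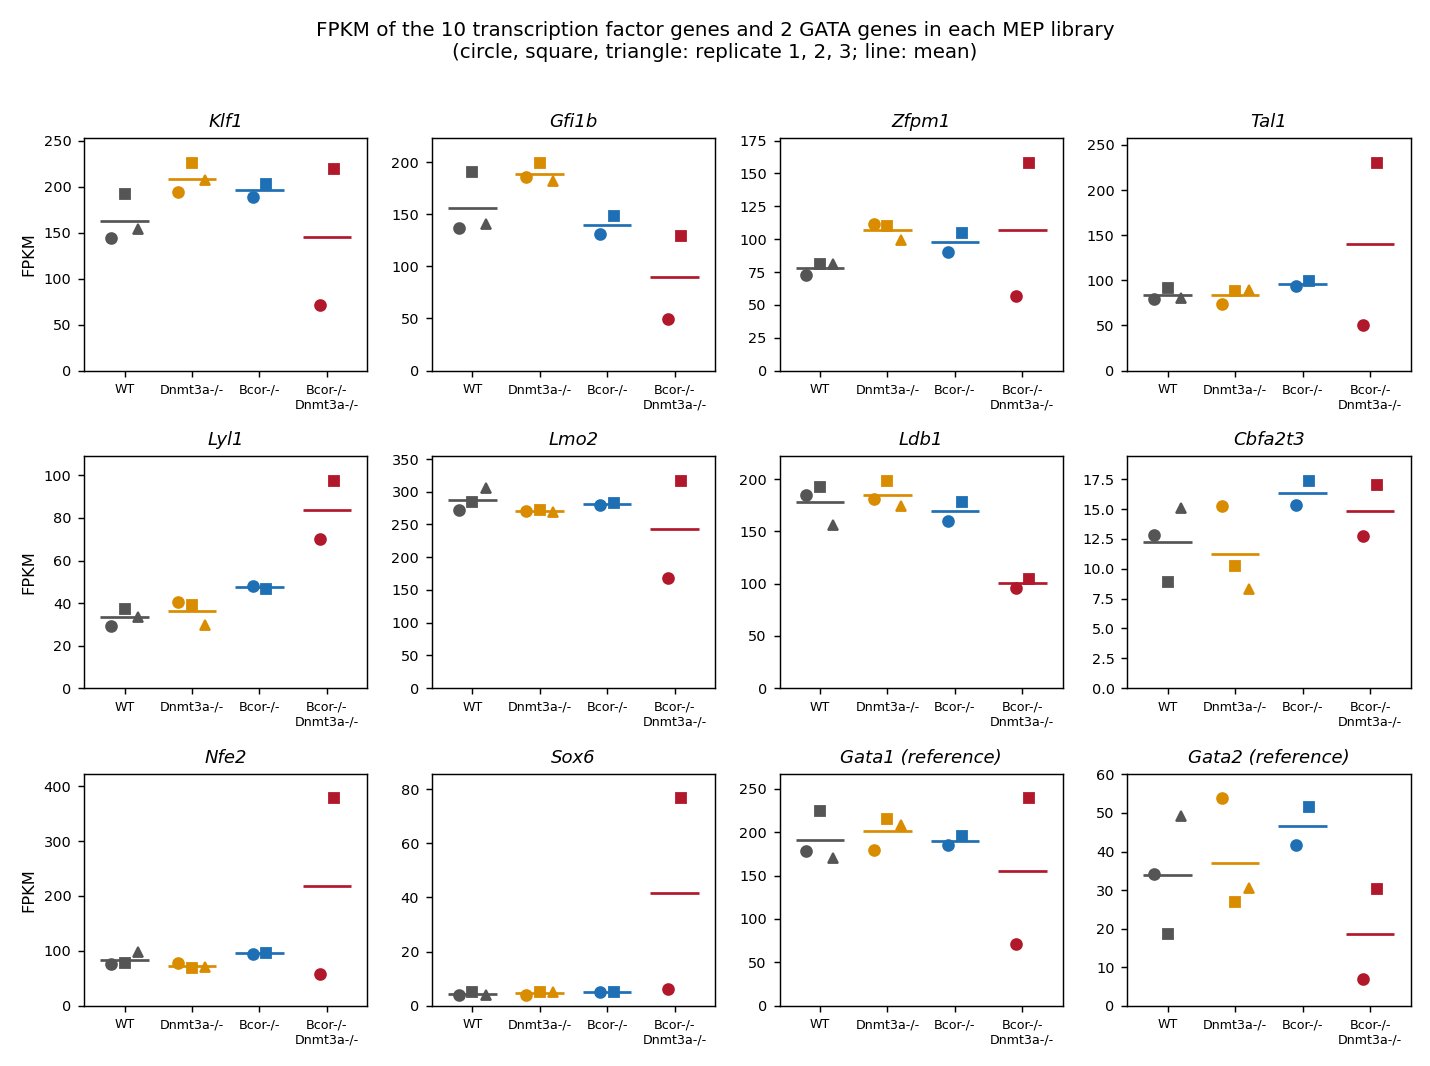
FPKM (linear axis from 0, scaled per gene) of each MEP library for the 10 genes and for Gata1 and Gata2, with 1 point per library and a line at the genotype mean. In Bcor-/-Dnmt3a-/- cells the pair of libraries lies at 95.8 and 104 FPKM for Ldb1 but at 57.1 and 378 for Nfe2 and at 6.37 and 76.5 for Sox6.

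**Figure D4:**
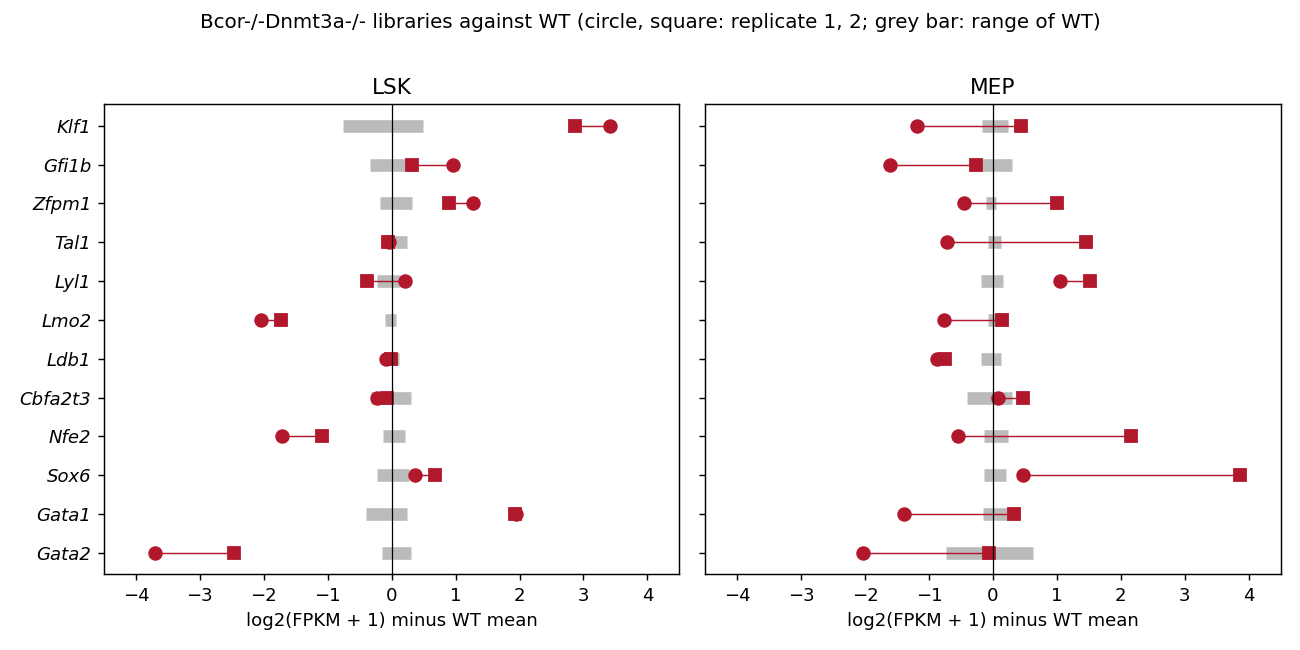
Difference of each Bcor-/-Dnmt3a-/- library from the WT mean, in log2(FPKM + 1), for LSK (left) and MEP (right), with the WT range as a grey bar. In LSK the pair of points lies on the same side of WT for Klf1, Zfpm1, Lmo2, Nfe2 and Sox6, and in MEP on opposite sides for Klf1, Zfpm1, Tal1, Lmo2 and Nfe2.

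The MEP libraries also differed in their markers. Erythroblast markers summed to 3731 to 5335 FPKM in WT and to 5243 and 69883 in Bcor-/-Dnmt3a-/- replicates 1 and 2, with 4 of 11 higher and 1 lower. Hba-a1 was 1055 and 55204 FPKM, and Hbb-b1 is listed at 0 in replicate 2, which can be a failed estimate. B cell markers summed to 2859 and 156 FPKM against 105 to 251 in WT (6 of 10 higher, 1 lower), and macrophage markers to 766 and 8.92 against 4.57 to 5.27 (4 of 6 higher). Granulocyte-monocyte markers were high in both, at 6849 and 15110 FPKM against 317 to 803 (10 of 14 higher), as were T and NK markers at 144 and 317 against 44.1 to 73.6 (6 of 7 higher). Megakaryocyte markers were 24.4 and 83.4 FPKM against 98.8 to 383 (5 of 12 lower), stem and LSK markers 352 and 100.8 against 116 to 235 (2 higher and 2 lower of 8), and mast and basophil markers 22.9 and 50.4 against 8.12 to 27.5 (3 of 7 higher). Ly6a, which the MEP gate excludes, was 17.8 and 1.87 FPKM against at most 0.790 in WT. Replicate 2 had the higher sum for erythroblast, granulocyte-monocyte, T and NK, megakaryocyte, and mast and basophil markers. Replicate 1 had it for B cell, macrophage, and stem and LSK markers. Every member, and Gata1 and Gata2 with them, was higher in replicate 2 than in replicate 1. The part of these markers in the members' levels was not tested.

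Bcor loss alone changed no member in MEP cells under the call (limma, 0 of 10, and 0 with 1 variance per genotype), where 2.76% of all genes were called and 0.064% with the adjusted p. Bcor itself overlapped WT in these cells. At an unadjusted p under 0.05 whatever the fold, 1 of 10 members passed, beside 597 of the 10933 genes tested. That member was Lyl1, at 48.1 and 46.6 FPKM, above WT and below Bcor-/-Dnmt3a-/- (0.50 ± 0.18, adjusted p = 0.72). Between the Bcor genotypes Lyl1 (0.79 ± 0.20, adjusted p = 0.024) and Sox6 (1.99 ± 0.84, adjusted p = 0.11) were higher and Ldb1 (-0.75 ± 0.13, adjusted p = 0.0056) lower in Bcor-/-Dnmt3a-/- MEP cells, beside 27.9% of all genes. The Sox6 change was 0.29 without Bcor-/-Dnmt3a-/- replicate 2 and 3.69 without replicate 1, and 13 of 19 alternatives did not call it. Lyl1 was not called with 1 variance per genotype (limma adjusted p = 0.29) or without Bcor-/-Dnmt3a-/- replicate 2 (0.55), while Ldb1 was called under each of the 19 alternatives. The count of 3 was 6 without Bcor-/-Dnmt3a-/- replicate 1 and 7 without replicate 2.

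Whether the change with both knockouts differed between LSK and MEP cells was tested on the difference between the cell types within each mouse. It differed for 5 members at an adjusted p under 0.05, beside 20.5% of the 10773 genes tested. The Klf1 change in LSK minus that in MEP was 3.51 ± 0.60 on the log2 scale (adjusted p = 0.0073), and for Ldb1 it was 0.77 ± 0.17 (adjusted p = 0.017). Lmo2 (-1.57 ± 0.19, adjusted p = 0.0026), Lyl1 (-1.38 ± 0.30, adjusted p = 0.016) and Nfe2 (-2.22 ± 0.46, adjusted p = 0.014) had the lower change in LSK cells. The difference was -3.26 for Nfe2 and -1.91 for Lyl1 without Bcor-/-Dnmt3a-/- replicate 1, and -1.18 and -0.85 without replicate 2, all below an adjusted p of 0.05. For Gfi1b the difference was 1.57 ± 0.50 (adjusted p = 0.055). With 1 variance per genotype none of the 5 was below an adjusted p of 0.05 (limma, 0.099 to 0.34), and a fit of only the compared genotypes left 1.

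The genes around these factors were counted by list. Of 17 measured partners and corepressors of the TAL1-LDB1 complex, 2 were higher and 2 lower in Bcor-/-Dnmt3a-/- LSK cells, with a median log2 fold change of -0.10 beside 0.019 over all genes. This share of 23.5%, the same in MEP cells, was below the 28.3% and 30.9% of all genes called in LSK and MEP. The E proteins Tcf4 (1.10 ± 0.22, adjusted p = 0.0057) and Tcf3 (0.73 ± 0.32, adjusted p = 0.12) were the higher ones. Tcf4 was 43.4 and 80.5 FPKM against 25.8 to 28.9 in WT, but Tcf3 was 135 and 55.6 against 48.0 to 55.5, so that its replicate 2 was level with the highest WT library. Ssbp2, which protects LDB1 from degradation, was lower (-0.91 ± 0.21, adjusted p = 0.012), at 10.2 and 6.00 FPKM against 14.0 to 16.8 in WT. In MEP cells 3 were higher (Cbfb, Lmo4 and Tcf4, by 0.99, 0.99 and 0.83, limma adjusted p = 0.097, 0.012 and 0.058) and 1 lower of 17, with a median of -0.05 beside 0.018. Cbfb was 63.1 and 31.8 FPKM against 14.2 to 34.8 in WT, so that its replicate 2 lay inside the WT range. Among 13 paralogs of the members 3 were higher and 1 lower in LSK cells (30.8%, median -0.01) and 4 higher and 1 lower in MEP cells (38.5%, median 0.98), shares near those of all genes. Klf3, a repressor of the same family as Klf1, was 40.9 and 41.1 FPKM in mutant LSK cells against 13.1 to 14.3 in WT (1.51 ± 0.13, adjusted p = 8.4e-05). Klf2, an endothelial and lymphoid family member, was 46.0 and 524 FPKM against 31.2 to 40.8 (2.12 ± 0.77, adjusted p = 0.068), and Sox4, a progenitor and lymphoid relative of Sox6, was the lower one, at 30.4 and 5.55 FPKM against 39.2 to 50.4 (-1.66 ± 0.52, adjusted p = 0.04). In mutant MEP cells Klf2 was 26.9 and 139 FPKM against 3.83 to 7.05 (3.36 ± 0.69, adjusted p = 0.0076). With Dnmt3a loss alone Klf2 was also above every WT library, at 168, 198 and 125 FPKM in LSK and 50.0, 24.1 and 12.7 in MEP cells. Gfi1, the granulocytic relative of Gfi1b, was 17.3 and 6.41 FPKM in mutant MEP cells against 0.981 to 1.58 (2.37 ± 0.42, adjusted p = 0.004).

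Among 7 partners and competitors of NFE2, Bach2, a repressor that binds the same sites, was the 1 called in LSK cells, at 23.6 and 12 FPKM against 3.37 to 3.55 in WT (2.0 ± 0.25, adjusted p = 0.00055; 14.3% of the list, median 0.09). In MEP cells Bach2 (1.61 ± 0.48, adjusted p = 0.033) and Bach1 (0.97 ± 0.31, adjusted p = 0.044) were higher and Nfe2l2 lower (-0.59 ± 0.11, adjusted p = 0.0043), 42.9% of the list, with a median of 0.63. Bach2 was 14.2 and 3.07 FPKM in the mutant MEP libraries against 1.21 to 2.01 in WT. Of 7 NFE2 target genes of platelets and erythroblasts, 2 were higher and 3 lower in LSK cells (71.4%, median -0.42). The counts were the same in Bcor-/- LSK cells (71.4% beside 13.2% of all genes, median -0.23), where Nfe2 was not called (-0.21). The heme synthesis gene Fech was higher (2.57 ± 0.26, adjusted p = 0.00021), and the lower ones included Casp12 (-2.95 ± 0.28, adjusted p = 0.00013). In MEP cells 1 was higher (Txnip) and 1 lower (Rab27b) of 6 (33.3%), with a median of 0.93.

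The erythroid genes bound by the GATA1 complex were mostly higher in Bcor-/-Dnmt3a-/- LSK cells, 24 of 26 with 1 lower, Bcam (96.2% called), and a median log2 fold change of 3.46. The list holds all 11 erythroblast markers, so it is no separate measure from them. The globin genes Hbb-b1 (7.54 ± 0.68) and Hba-a1 (7.41 ± 0.67, both with an adjusted p of 0.00011) changed most, Hba-a1 being 8.83, 24.4 and 34.6 FPKM in WT and 1810 and 6837 in the mutant. Alas2, the first enzyme of erythroid heme synthesis, was 0.541, 1.57 and 2.01 FPKM in WT and 120.4 and 469 in the mutant (6.71 ± 0.51, adjusted p = 6.2e-05), and Slc4a1, the band 3 anion exchanger, 0.959, 2.35 and 5.47 and 223 and 437 FPKM. In Bcor-/- LSK cells 14 of 26 were higher and 0 lower, with a median of 0.92, but Alas2 stayed at 1.72 and 1.04 FPKM. In Bcor-/-Dnmt3a-/- MEP cells 7 of 25 were higher and 1 lower (Car1), 32% beside 30.9% of all genes, with a median of 0.90. Alas2 was 88.3 FPKM in replicate 1 and 4392 in replicate 2. Hbb-b1 went the other way, at 1854 FPKM in replicate 1 and the doubtful 0 in replicate 2. The log2 fold change was 6.14 ± 1.30 for Alas2, 5.66 ± 1.32 for Hba-a1 and 5.10 ± 1.13 for Slc4a1 there (adjusted p = 0.0087, 0.013 and 0.011). In Bcor-/- MEP cells 0 of 25 were called (limma, median -0.13).

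Of 13 other erythroid regulators 5 were higher and 2 lower in Bcor-/-Dnmt3a-/- LSK cells (53.8%, median 0.42). The cell cycle factor E2f2 was 60.4 and 90.1 FPKM against 9.44 to 10.7 in WT (2.78 ± 0.17, adjusted p = 3.5e-05) and the erythropoietin receptor gene Epor 26.5 and 17.4 against 2.99 to 5.11 (2.21 ± 0.29, adjusted p = 0.00072), and Id1, an inhibitor of basic helix-loop-helix proteins, was lower (-1.45 ± 0.48, adjusted p = 0.051). In MEP cells E2f2 was higher (2.79 ± 0.79, adjusted p = 0.028) and Stat5a, which acts below the erythropoietin receptor, lower (-0.99 ± 0.08, adjusted p = 0.00038) among 13, at 27.3 and 27.5 FPKM against 53.8 to 57.3, 15.4% of the list, with a median of 0.06. Of 13 stem and progenitor transcription factors 5 were lower and 1 higher in LSK cells (46.2%, median -0.62), with Hlf at -4.29 ± 0.40 (adjusted p = 0.00012), Meis1 at -3.88 ± 0.49 (adjusted p = 0.00055) and Mecom at -3.11 ± 0.21 (adjusted p = 4.2e-05). In MEP cells 3 of 12 were higher (Gfi1, Spi1 and Fli1; 25%, median 0.46) and 0 lower. Of 9 genes repressed by GFI1B 2 were higher and 3 lower in LSK cells (55.6%, median 0.30), the lower ones being Meis1, Id1 and Rgs18 (-2.39 ± 0.18, adjusted p = 5.4e-05), and 3 of 8 were higher in MEP cells (Socs3, Gfi1 and Id2; 37.5%, median 0.27).

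The genes most like each member over the 8 group means, centred within each cell type, were found among 10763 genes, as a description of means that rest on 2 or 3 libraries each and share the Bcor-/-Dnmt3a-/- libraries. Klf1 was closest to Mt2 (Pearson r = 0.998) and had r = 0.978 with Gata1 and -0.738 with Gata2. Lmo2 was closest to Smc1a and Rcn1 (both 0.994), with r = 0.953 with Gata2 and -0.835 with Gata1. Among the other members r with Gata1 ran from -0.875 (Nfe2) to 0.709 (Zfpm1), and r with Gata2 from -0.738 (Zfpm1) to 0.559 (Nfe2). Nfe2 was closest to Fundc1 (0.996), Lyl1 to Jdp2 (0.994) and Spi1 (0.983), Ldb1 to Atg2b (0.994), Sox6 to Lcor (0.997), Tal1 to Slc7a6 (0.987), Gfi1b to Tm9sf1 (0.982), Zfpm1 to Alkbh5 (0.982) and Cbfa2t3 to Arhgap5 (0.974).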

How the data were processed

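Total RNA of sorted LSK and MEP cells was sequenced as polyA RNA, and the authors deposited the FPKM values, 1 table for LSK and 1 for MEP. The submitters' processing notes name STAR 2.5.1b, SAMtools 1.9, Cufflinks 2.2.1 and the build mm9, and the values were analyzed as deposited. Depths are not given, so no counting error was computed. The groups came from the labels. FPKM were converted to log2 after adding 1, genes below a mean of 1 FPKM were left out, and limma 3.58.1 in R 4.3.3 fitted all 4 genotypes of a cell type with a mean-variance trend. Single genes were called by the study's thresholds, since its methods name no test. The difference between cell types was fitted on the LSK minus MEP value of each mouse. The procedure was tested on simulated data whose spread came from the libraries other than Bcor-/-Dnmt3a-/-. That test therefore does not cover calls on a divergent pair of Bcor-/-Dnmt3a-/- libraries. The alternatives were a pseudocount of 0.1, no filter or a minimum of 5 FPKM, quantile normalization, median centring, a fit of the compared genotypes alone, variance weights by genotype, the replicate number as a block, no trend, the adjusted or unadjusted p, a fold over 2, and leaving out each library.

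Named are all members, Gata1 and Gata2, the 3 called genes with the largest change per list and cell type (marker lists are given as sums and counts), the 2 genes most like each member (or the first of them), and single genes needed to describe a list, gate or family. One gene that this rule names is not reported here. The members and lists were chosen with earlier results of these data known. Promoter sequences and their positions came from RefSeq on GRCm38.p6, a build other than that of the tables, and no positions on the build of the tables are given. Figures were drawn with Python and matplotlib.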

Additional observations from a re-analysis of the deposited data

Results flagged for a closer look

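The change of Bcor-/-Dnmt3a-/- against WT differed between LSK and MEP cells for 5 members and both reference genes, by limma's test of the difference itself at an adjusted p under 0.05. The difference, LSK minus MEP on the log2(FPKM + 1) scale, was 3.51 for Klf1 and 0.77 for Ldb1, and -1.57 for Lmo2, -1.38 for Lyl1 and -2.22 for Nfe2. It was 2.47 for Gata1 (adjusted p = 0.0089) and -2.03 for Gata2 (adjusted p = 0.0088). For Klf1, Gata1, Lmo2, Nfe2, Lyl1 and Gata2 the adjusted p stayed below 0.05 without any single mouse, with the highest values 0.03, 0.036, 0.017, 0.046, 0.048 and 0.028, and for Ldb1 it reached 0.061. With each mouse left out in turn the difference ran from 2.43 to 4.59 for Klf1, 0.68 to 0.93 for Ldb1, -1.88 to -1.27 for Lmo2, -1.91 to -0.85 for Lyl1, -3.26 to -1.18 for Nfe2, 1.59 to 3.34 for Gata1 and -2.40 to -1.67 for Gata2. With 1 variance per genotype the adjusted p of all 7 was above 0.05.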

How the results depend on the processing

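Each of 84 results, 1 gene in 1 comparison, was recomputed under up to 19 alternatives. Of 1592 such values 1457 kept their direction and their side of the threshold, 61 lost a call, 36 gained one and 38, in 27 results, turned direction. In LSK the calls of Klf1, Zfpm1, Lmo2 and Nfe2 with both knockouts stood under each, with a range of 2.76 to 3.42 for Klf1, 0.89 to 1.27 for Zfpm1, -2.09 to -1.74 for Lmo2 and -1.72 to -1.09 for Nfe2, and adjusted p-values up to 0.05, 0.19, 0.0071 and 0.022, those of Klf1 and Zfpm1 with 1 variance per genotype and those of Lmo2 and Nfe2 in a fit of the compared genotypes alone. In MEP 1 variance per genotype gave an adjusted p of 0.13 for Lyl1 and 0.17 for Ldb1. Over all genes that setting made 1980 calls of both knockouts against WT in MEP where the shared variance made 3376. For Bcor-/- LSK the adjusted p left 690 of 1581 calls, for Bcor-/- MEP 7 of 302.

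The count of members called in Bcor-/- LSK was 2 with a pseudocount of 0.1 or quantile normalization, and 1 to 3 with a library left out. In MEP with both knockouts against WT it was 2 in a fit of the compared genotypes alone, with the adjusted p or with a fold over 2. Against Bcor-/- in MEP it was 1 with a fold over 2 and 2 to 7 with a library left out. For the difference between cell types it was 1 in a fit of the compared genotypes alone, 0 with variance weights, 8 with the unadjusted p and 4 to 8 with a mouse left out.

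Other alternatives turned Zfpm1 in Bcor-/- LSK (-0.058, quantile normalization), Tal1 in Bcor-/- LSK (0.019, replicate block) and Gata1 in Bcor-/- MEP (-0.0034 after centring and -0.022 with the replicate block). With 1 library left out at a time, the lowest and highest log2 fold changes of the results that turned were as follows. In LSK with both knockouts against WT they were -0.11 and 0.065 for Tal1, -0.081 and 0.019 for Ldb1, -0.31 and 0.0078 for Cbfa2t3 and -0.39 and 0.20 for Lyl1, and against Bcor-/- -0.099 and 0.037 for Tal1. In Bcor-/- LSK they were -0.070 and 0.40 for Gfi1b, -0.090 and 0.16 for Zfpm1 and -0.089 and 0.096 for Tal1. In MEP with both knockouts against WT they were -1.18 and 0.43 for Klf1, -0.77 and 0.14 for Lmo2, -1.40 and 0.33 for Gata1, -0.46 and 1.0 for Zfpm1, -0.71 and 1.45 for Tal1 and -0.54 and 2.16 for Nfe2. Against Bcor-/- in MEP they were -0.77 and 0.69 for Zfpm1, -1.45 and 0.16 for Klf1, -0.74 and 0.17 for Lmo2, -0.34 and 0.058 for Cbfa2t3, -1.40 and 0.33 for Gata1, -0.92 and 1.25 for Tal1 and -0.73 and 1.97 for Nfe2. In Bcor-/- MEP they were -0.074 and 0.13 for Gata1, -0.24 and 0.0012 for Gfi1b, -0.069 and 0.015 for Lmo2 and -0.16 and 0.012 for Ldb1. For the difference between cell types they were -0.11 and 1.73 for Zfpm1 and -1.52 and 0.67 for Tal1. The cause of these turns was not tested.

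The replicate numbers were not taken to pair the samples, since not every pair correlated over 0.1 (0 of 13 in LSK, 8 of 13 in MEP). Deviations of same-numbered libraries correlated at -0.06 to 0.09 in LSK and -0.19 to 0.34 in MEP and 2 of 10 LSK and 7 of 10 MEP libraries correlated best with their own number. With the replicate block the counts of members called against WT were 5, 1 and 0 in LSK and 4, 0 and 0 in MEP for both knockouts, Bcor-/- and Dnmt3a-/-. With the block Gfi1b gained a call against Bcor-/- in MEP (4 members in place of 3) and in the difference between cell types (6 in place of 5, also with quantile normalization). Depth is not known, and with 2 or 3 libraries a genotype the intervals of low or divergent genes such as Sox6 in MEP are wide.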
